A study of Mus musculus with 19 samples.

Results

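OT-I CD8 T cells recovered from irradiated mice 40 days after transfer were set against OT-I cells recovered at day 5. OT-I cells carry a transgenic T cell receptor for an ovalbumin peptide, so that nearly all of them bear the same receptor. The comparison used the arrays titled day 40 (n = 4) and those titled day 5 (n = 8) in irradiated B6 hosts, 12 of the 19 arrays of the study. The other arrays came from OT-I cells in irradiated hosts at day 115 (n = 3) and in unirradiated hosts at day 6 (n = 4). The descriptions give day 6 as the sort day of the arrays titled day 5, and for day-5 arrays 1 and 2 they leave the cell type out. Both groups received the same kind of transfer and came from lymph node and spleen. Time after irradiation, time after transfer and age of the cells therefore cannot be told apart. The radiation dose, the age and sex of the animals, the lymphocytes left in the hosts and any pooling of animals are not given in the sources used here. P-values below measure the spread between samples, which may in part be technical. Unless another set of arrays is named, that spread was estimated from all 19 arrays, including those outside the comparison.

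T cells placed in a host that has lost its lymphocytes divide without foreign antigen, driven by contact with self peptides on MHC molecules and by the cytokine IL-7. This homeostatic proliferation slows as the lymphocyte pool refills. The CD8 T cells that come out of it carry many surface features of memory cells, which rest between encounters and hold effector transcripts ready. Day 5 falls in the expansion and day 40 after it.

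The values are the deposited signal intensities, on a linear scale and already brought to similar array medians, from 49.6 to 53.7. Differences are day 40 minus day 5 on the log2(signal + 16) scale, with their SE, so they understate the change of dim genes. A gene is called when its Benjamini-Hochberg adjusted p in limma, fitted over 8695 tested probe sets, is under 0.05. A gene with several probe sets counts by the brightest. The co-receptor gene Cd8a had a signal of 2567 ± 515 at day 40 and of 2940.0 ± 818 at day 5 (SD, n = 4 and n = 8), with a log2 difference of -0.16 (adjusted p = 0.89). Cd8b1 averaged 3919 ± 1465 at day 40 and 4367 ± 1340.3 at day 5. The defining markers of the labelled cells were thus present on the arrays of both days, and none of the 9 tested CD8 identity genes was called. At an unadjusted p under 0.05, 2 were higher and none lower, where 536 and 277 of all 6409 tested genes were. Of the 9, 7 had a negative difference, and the median was -0.13.

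The 12 arrays fell into 2 sets that cut across the days. Array cluster 1 held day-40 arrays 1 and 2 and day-5 arrays 1 to 3, and array cluster 2 held day-40 arrays 3 and 4 and day-5 arrays 4 to 8. Pairs of the same day in different clusters had a median correlation of 0.884, against 0.959 for pairs of different days in the same cluster. The labels give no batch that matches the clusters. The clusters were drawn from these same signals, so a term for them in a model takes up spread in part by construction. Since each cluster holds arrays of both days, values are also given from a model with a term for the cluster (below, the cluster term) or within each cluster. A fit within a cluster took all its arrays. Its spread thus also used the day-115 arrays in cluster 1 and the unirradiated arrays in cluster 2.

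Of 8695 probe sets, 82 were called higher at day 40 (0.943%) and 27 lower (0.311%), which is 1.25% in either direction. By gene the counts were 69 higher (1.08%) and 21 lower (0.328%) of 6409, and 19 probe sets rose and 8 fell by at least 1 on the log2 scale. With the cluster term, 447 probe sets were higher (5.14%) and 203 lower (2.33%), and they included all 109 of the calls made on groups alone, in the same direction. The count of 109 became 67 without day-40 array 3, 25 without day-40 array 4 and 187 without day-5 array 4. Without day-5 arrays 1 and 2, whose descriptions name no cell type, it was 193. With the 12 arrays of the comparison alone it was 46, with 42 higher and 4 lower.

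Genes of cell division were the deepest falls. Pclaf, which binds the DNA clamp PCNA at replication forks, had signals of 21.5, 22.1, 33.8 and 23.1 in day-40 arrays 1 to 4, against a lowest of 43.8, a median of 206 and a highest of 547 at day 5. Every day-40 array lay below every day-5 array, as was so for 0.811% of all tested genes. The rule that picked the largest falls and rises for naming took only genes without overlap. For those genes, here and below, the lack of overlap is thus part of the choice and no added evidence. The log2 difference was -2.36 ± 0.44 (adjusted p = 0.0103), and it was -1.43 within cluster 1 and -2.87 within cluster 2. Stmn1, a protein that destabilises microtubules as the spindle forms, gave 161, 146, 112 and 101 at day 40, against 242, 861 and 1320.5 as the lowest, median and highest day-5 signals. Here too the groups were apart, with a difference of -2.30 ± 0.40 (adjusted p = 0.00607). A second probe set of Stmn1 differed by only 0.04, so the fall of Stmn1 rests on its brighter probe set.

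Top2a, the topoisomerase that untangles replicated chromosomes, stood at 35.9, 35.4, 37.6 and 31.8 at day 40, against 51.6, 176 and 635 (lowest, median, highest) at day 5. The 4 day-40 arrays were close to one another, and all lay below the widely spread day-5 arrays. Top2a fell by 1.91 on the log2 scale (adjusted p = 0.0194). The proliferation marker Mki67 gave 16.2, 15.7, 17.9 and 14.7 at day 40, against 32.5, 71.2 and 386 at day 5. It differed by -1.79 ± 0.38 (adjusted p = 0.0221) without overlap, while its other probe set differed by -0.22. Cdk1, the kinase that starts mitosis, had 58.6, 58.7, 50.5 and 39.6 at day 40 and 86.2, 186 and 333 at day 5, again without overlap, and a difference of -1.53 ± 0.28 (adjusted p = 0.0103). Cdc6, which loads the replicative helicase onto origins, had 23.4 to 28.1 at day 40 and 48.4 to 250.4 at day 5 and differed by -1.35 ± 0.26 (adjusted p = 0.0119).

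Smaller falls in this group were those of Nusap1, a spindle microtubule protein (-1.26, adjusted p = 0.038), Cdca7, a cell cycle gene induced by MYC and E2F factors (-1.06, adjusted p = 0.0119), and Tcf19 (-0.79, adjusted p = 0.0229). The other probe set of Nusap1 differed by -0.19. The day-40 means of Pclaf (25.1), Mki67 (16.1) and Cdc6 (25.6) lay under 26.4, the signal at the filter for expression, so that their log2 sizes depend on the constant added. With 1 added in place of 16 the differences of these genes were -2.88, -2.45 and -1.76, and with 64 they were -1.60, -1.05 and -0.81. The call of Mki67 was lost with 64 added (adjusted p = 0.067). Mki67 also averaged under 26.4 in unirradiated hosts (20.8) and at day 115 (17.3), so it passed the filter only through its day-5 signals. Its call and its place in the mitosis list below rest on that. Day-40 array 4 mattered most, since the calls of Pclaf, Cdk1, Cdc6 and Cdca7 ended without it. Top2a and Tcf19 were lost without day-40 array 3 or 4, and Mki67 and Nusap1 without any 1 of the day-40 arrays, Nusap1 also without day-5 array 5, 6 or 8. Stmn1 stayed called whichever array was left out. All these adjusted p values rest on the spread of all 19 arrays. With the 12 arrays of the comparison alone, 4 probe sets were called lower in place of 27.

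**Figure D1:**
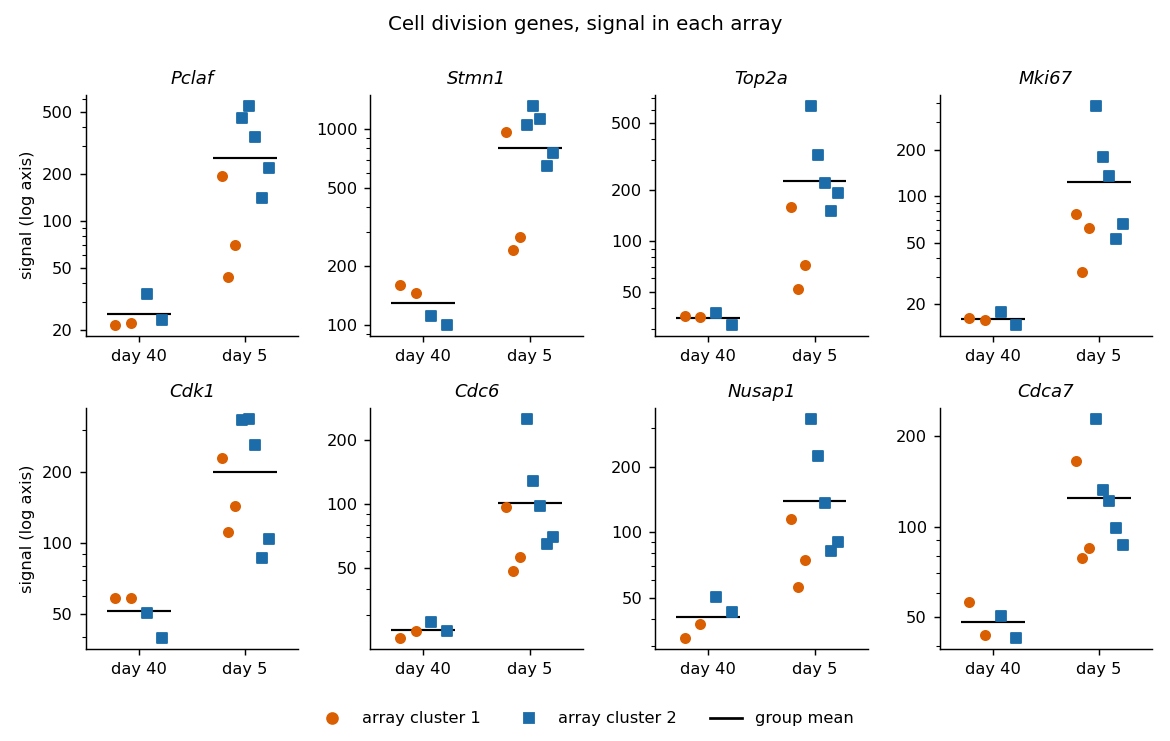
Signal of 8 cell division genes in each day-40 array (left in each panel) and each day-5 array (right), on a log axis, with points coloured by array cluster and the group mean as a line. The day-40 arrays sit in a narrow low band in each panel, while the day-5 arrays spread widely above them, as for Top2a with 31.8 to 37.6 at day 40 and 51.6 to 635 at day 5.

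Across the machinery of mitosis and cytokinesis, 6 of 40 tested genes were called lower at day 40 and none higher, where 0.328% of all genes were called lower. All lists here were written with earlier results of these data known, so their counts may in part follow from the choice of members. The median of the list was -0.53 and 36 of its 40 members had a negative difference, against a median of 0.00 and 3182 negative differences among 6409 tested genes. The sixth call was Ccnb2, the cyclin B2 partner of Cdk1, at -0.88 (adjusted p = 0.0354), which lies outside the rule for naming genes. With the cluster term 18 were lower, where 2.32% of all genes were, and 1 was higher, where 5.71% of all genes were. The 1 higher was the condensin subunit gene Smc4 at 0.75 (adjusted p = 0.0264). The count of 6 was 3, 2 and 1 without day-40 arrays 2, 3 and 4, and 12 without day-5 array 2. It was 15 without day-5 arrays 1 and 2 together.

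In the DNA replication list, 2 of 32 tested genes were called lower, Pclaf and Cdc6, where 0.328% of all genes were, and none higher. The median was -0.27 with 27 negative differences. With the cluster term 9 were lower, where 2.32% of all genes were. The count of 2 became 0 without day-40 array 4 and 4 without day-5 array 2 or 3, and 5 without day-5 arrays 1 and 2 together. Pcna, the replication clamp itself, had 226, 561, 500.3 and 466 at day 40 and 522, 1062 and 1517 (lowest, median, highest) at day 5. Only day-40 array 2 overlapped the day-5 range, and Pcna missed the threshold on groups alone (-1.19 ± 0.30, adjusted p = 0.0559). In the model with the cluster term it passed (-1.10, adjusted p = 0.009). Mcm5, a subunit of the replicative helicase, differed by -0.43 ± 0.28 (adjusted p = 0.646), and all day-40 arrays but array 3 lay inside the day-5 range.

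Of 18 tested genes that make nucleotides limma called none, with 5 lower and none higher at an unadjusted p under 0.05, a median of -0.29 and 17 negative differences. Rrm2, the regulated subunit of ribonucleotide reductase, had 28.1, 32.2, 28.2 and 26.4 at day 40 and 40.2, 68.7 and 289 at day 5, without overlap. Its difference of -1.13 ± 0.33 was outside the threshold (adjusted p = 0.096), and with the cluster term it was -1.15 (adjusted p = 0.0338). Of 14 G1 cyclins, kinases and E2F factors none was called (1 higher and 3 lower at an unadjusted p under 0.05), and their median was -0.17.

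The day-5 arrays differed among themselves in these genes far more than the day-40 arrays did. The mean log2 signal of the 40 mitosis genes lay between 6.67 and 6.70 in the 4 day-40 arrays, and between 6.88 (array 2) and 7.90 (array 4) in the 8 day-5 arrays. For the DNA replication genes it lay between 6.78 and 6.85 at day 40 and between 6.98 (array 7) and 7.77 (array 4) at day 5. In neither list did the days overlap. The spread at day 5 crossed the array clusters, since array 1 of cluster 1 stood at 7.45 for mitosis genes and arrays 7 and 8 of cluster 2 at 7.06 and 7.17. In sorted bulk samples, fewer cells in division and less of these transcripts per cell cannot be told apart.

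The promoters of the cell division genes with the deepest falls are printed below, because genes of replication and mitosis are known to be switched together through short elements near their start sites. CCAAT boxes bind the factor NF-Y, TTTGAA is the core of the cell cycle homology region bound by the DREAM and MuvB complexes, and E2F factors bind sites such as TTTGGCGC, TTTCCCGC, TTTGCCGC and TTTCGCGC. Each sequence is the 250 bases before the RefSeq start site in GRCm38.p6, given 5′ to 3′ on the strand of the gene, with matches to these letters on either strand in capitals. Stmn1 is not printed.
Pclaf: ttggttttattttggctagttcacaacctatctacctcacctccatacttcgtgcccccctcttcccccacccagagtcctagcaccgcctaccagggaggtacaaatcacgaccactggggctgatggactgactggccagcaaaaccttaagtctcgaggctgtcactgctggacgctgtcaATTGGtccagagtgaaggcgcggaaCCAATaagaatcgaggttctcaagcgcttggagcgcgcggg
Top2a: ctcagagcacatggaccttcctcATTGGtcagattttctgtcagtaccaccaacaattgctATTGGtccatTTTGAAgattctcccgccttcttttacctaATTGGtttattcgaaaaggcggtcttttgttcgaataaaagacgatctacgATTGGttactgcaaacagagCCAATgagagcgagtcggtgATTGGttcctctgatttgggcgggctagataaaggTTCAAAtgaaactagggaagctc
Mki67: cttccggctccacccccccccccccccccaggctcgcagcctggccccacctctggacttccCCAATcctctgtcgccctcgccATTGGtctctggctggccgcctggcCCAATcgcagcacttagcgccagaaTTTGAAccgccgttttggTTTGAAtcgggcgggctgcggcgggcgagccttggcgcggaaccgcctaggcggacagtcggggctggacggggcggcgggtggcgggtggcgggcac
Cdk1: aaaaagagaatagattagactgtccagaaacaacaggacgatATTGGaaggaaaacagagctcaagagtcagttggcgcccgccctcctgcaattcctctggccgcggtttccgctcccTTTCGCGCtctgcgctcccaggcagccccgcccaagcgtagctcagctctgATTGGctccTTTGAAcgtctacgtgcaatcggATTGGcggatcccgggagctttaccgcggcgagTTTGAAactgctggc

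The Pclaf window is chr9:65890073-65890322 on the plus strand, and holds 2 CCAAT matches, from 66 to 62 and from 41 to 37 bases before the start, with no TTTGAA and no E2F match. The Top2a window, chr11:99024190-99024439 on the minus strand, has 6 CCAAT and 2 TTTGAA matches. Mki67, at chr7:135716380-135716629 on the minus strand, has 3 CCAAT and 2 TTTGAA matches, and Cdk1, at chr10:69352913-69353162 on the minus strand, has 3 CCAAT, 2 TTTGAA and 1 E2F match. None of these matches overlapped another.

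CCAAT stood in 34.5% of all 27025 promoter windows of this length, in 36.3% of the 5153 windows of tested genes, and in 71.2% of the 59 windows of replication or mitosis genes. TTTGAA stood in 16.3%, 11% and 28.8% of the same windows, and the E2F letters in 1.92%, 3.51% and 11.9%. Of the replication and mitosis genes, 27 were lower with the cluster term and 21 of these had a window, with CCAAT in 76.2%, TTTGAA in 33.3% and E2F letters in 9.52%. A match of letters is a description of the window, and the shares were not tested.

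The gene with the largest rise at day 40 was Ccl5, a chemokine that memory CD8 T cells store as transcript and release on contact with antigen. Its signals were 1735, 2049.6, 1999 and 2855 at day 40, against a lowest of 141, a median of 341 and a highest of 654 at day 5. All 4 day-40 arrays stood above all 8 day-5 arrays, and the log2 difference was 2.62 ± 0.37 (adjusted p = 0.00117). It was 2.61 within cluster 1 and 2.69 within cluster 2. Fasl, which engages the death receptor Fas on target cells, had 141, 102, 97.7 and 108 at day 40 and 23, 28 and 39.3 at day 5. With its narrow spread, Fasl gave the smallest adjusted p among the named genes, at a difference of 1.53 ± 0.09 (adjusted p = 6.25e-09).

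The memory list as a whole had 9 of 22 tested genes called higher and 1 lower, where 1.08% and 0.328% of all genes were, with a median of 0.31. It had 10 higher and 2 lower with the cluster term, where 5.71% and 2.32% of all genes were. In 8 of the 9, every day-40 array lay above every day-5 array. The exception was Il18rap, whose lowest day-40 signal of 122 was under the highest day-5 signal of 131. The 9 were called on these same arrays, so the lack of overlap is not separate from the call. The list was also written with earlier results of these data known, so its count is not separate from the choice of members. Of all 82 probe sets called higher, 59 were likewise free of overlap. Among all tested genes, called or not, 1.54% had every day-40 array above (2.36% in either direction). Without day-40 array 4 the count of 9 became 4, and without day-5 arrays 1 and 2 together it was 9.

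Of the cytokine receptor and signalling genes, 3 receptor chains and a signal transducer rose. Il7r, the chain that binds IL-7, had 1344, 2159.6, 2435 and 3022 at day 40, against 561, 754 and 1020.3 (lowest, median, highest) at day 5, with a difference of 1.47 ± 0.25 (adjusted p = 0.00545). The groups were apart, and the lowest day-40 signal belonged to array 1. Il18r1, the ligand-binding chain of the IL-18 receptor, had 296, 418, 487 and 484 at day 40 and 106, 183 and 193 at day 5, and differed by 1.25 ± 0.18 (adjusted p = 0.00121). Il18rap, its signalling partner, rose by 0.72 ± 0.14 (adjusted p = 0.0132). Stat4, the factor that transmits IL-12 signals, had 470.1, 666, 524 and 603 at day 40 and 159.6, 276 and 393 at day 5, and rose by 1.07 ± 0.23 (adjusted p = 0.0224). The difference of Stat4 was 0.58 within cluster 1 and 1.36 within cluster 2.

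In the list of cytokine receptors and signalling these 4 genes were the only calls among 29, where 1.08% of all genes were higher, and the median was 0.26. The cluster term gave 8 higher, where 5.71% of all genes were. None was lower, with 1 lower on groups alone at an unadjusted p under 0.05. Il2rb, the chain shared by the IL-2 and IL-15 receptors and a classical mark of memory CD8 T cells, had 98.1, 59.3, 50.3 and 43.2 at day 40 and 34.2, 47.4 and 54.5 at day 5. The groups overlapped and the difference of 0.32 ± 0.14 did not pass (adjusted p = 0.319). Bcl2, a survival factor downstream of IL-7, stood at 545 ± 262 at day 40 and 534 ± 259 at day 5, and differed by 0.07 (adjusted p = 0.989). The Stat4 call ended without day-40 array 2, 3 or 4 and that of Il18rap without day-40 array 2 or 4, and the list count of 4 became 2 without day-40 array 2 or 4.

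Of the adhesion and homing genes, Itgb1, Ccr2 and Cxcr3 rose and Itgae fell. Itgb1, the β1 integrin chain, had 1588, 2031, 2463 and 3043 at day 40, against 388, 794 and 1197 at day 5, a difference of 1.63 ± 0.30 (adjusted p = 0.0103). All day-40 arrays of Itgb1 lay above the day-5 arrays. Its second probe set was called in the same direction at 1.41 (adjusted p = 0.000312). Ccr2, a receptor for inflammatory chemokines, had 79.5, 135, 81.0 and 136 at day 40 and 28.7, 43.5 and 69.7 at day 5 (0.97 ± 0.17, adjusted p = 0.00696). Cxcr3, the receptor for interferon-induced chemokines, had 1170.1, 1133, 843 and 966 at day 40 and 348, 586 and 790.0 at day 5 (0.90 ± 0.20, adjusted p = 0.0341). None of the 3 genes overlapped between the days.

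Itgae, the αE chain that binds E-cadherin on epithelia, fell and had 23.2 to 27.7 at day 40 and 34.2 to 69.1 at day 5 (-0.53 ± 0.11, adjusted p = 0.0196). Its day-40 mean of 25.6 lay under the filter signal of 26.4. Those 4 were the only calls among 27 tested chemokine receptors and adhesion genes, where 1.08% of all genes were higher and 0.328% lower, and the median was 0.04. Ccr7, which guides T cells into lymph nodes, gave 126 ± 69.2 at day 40 and 115 ± 53.8 at day 5 (0.11, adjusted p = 0.972). Without day-40 array 4, Itgb1, Ccr2, Cxcr3 and Itgae all lost their calls. Cxcr3 was also lost without day-40 array 1 or 2 or day-5 array 5 or 6, and Itgae without day-40 array 1 or 2.

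**Figure D2:**
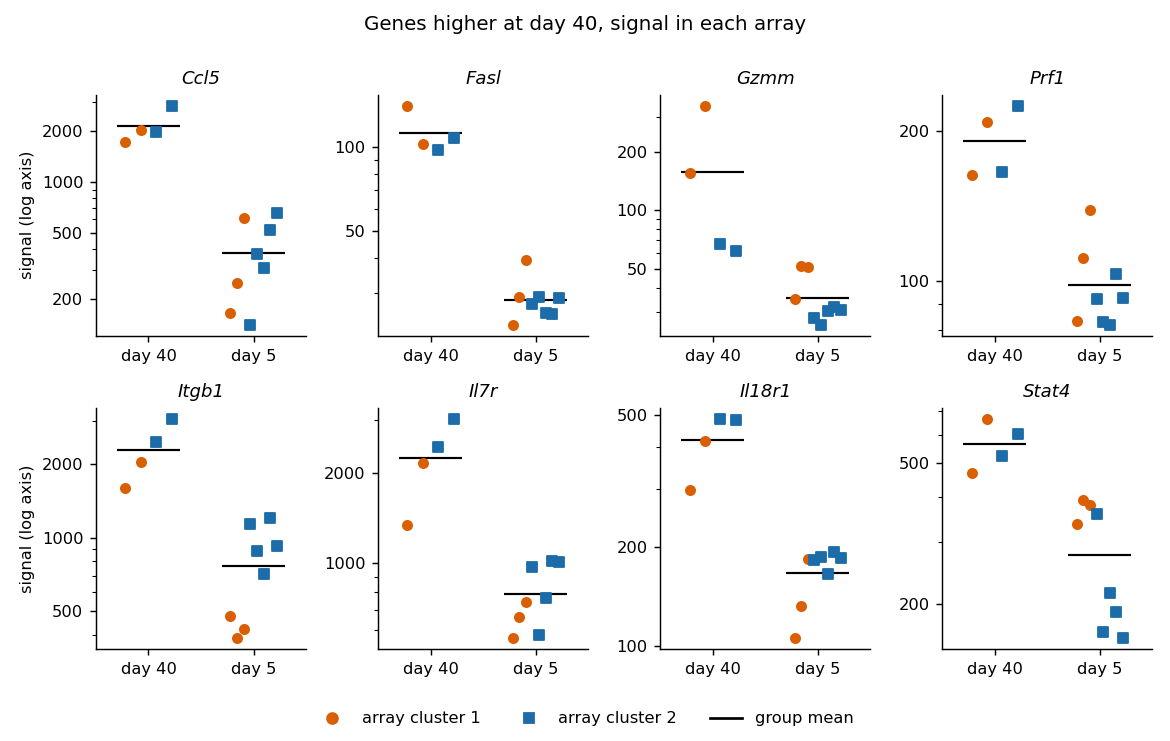
Signal of 8 genes that rose, among them Ccl5, Fasl, Gzmm and Il7r, in each day-40 array (left in each panel) and each day-5 array (right), on a log axis, with points coloured by array cluster and the group mean as a line. For Ccl5 the day-40 arrays lie between 1735 and 2855 and the day-5 arrays between 141 and 654, and in the other panels too every day-40 point is above every day-5 point.

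Among cytotoxic molecules, perforin and a granzyme rose and other granzymes were not called. Prf1, which encodes the pore-forming perforin, had 163, 209, 166 and 225 at day 40, against 81.8, 92.5 and 139 at day 5, without overlap, and rose by 0.86 ± 0.13 (adjusted p = 0.00157). Gzmm, a granzyme, had 155, 345, 67.1 and 61.7 at day 40, against 25.8, 31.2 and 52.0 at day 5, and rose by 1.48 ± 0.30 (adjusted p = 0.0187). The 2 high day-40 arrays of Gzmm were those of cluster 1, and the difference was 2.01 within cluster 1 and 0.83 within cluster 2. Gzmb, the main granzyme of activated killer cells, had 136, 70.2, 76.4 and 79.5 at day 40 and 66.6, 94.7 and 426 at day 5, with a difference of -0.54 ± 0.38 that was not called (adjusted p = 0.697). Gzma stood at 44.5 ± 6.24 at day 40 and 60.8 ± 24 at day 5 (-0.30, adjusted p = 0.466).

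Ctla2b, a cathepsin inhibitor-like gene of activated T cells, rose by 1.12 ± 0.24 (adjusted p = 0.0222), and its day-40 range of 75 to 142 met a day-5 range of 29.9 to 84.9. A probe set shared by Ctla2a and Ctla2b gave 588 ± 209 at day 40 and 131 ± 33.4 at day 5 (2.01 ± 0.28, adjusted p = 0.00117). Signal of these near-identical genes may cross between their probe sets. In the list of effector molecules, 5 of 25 tested genes were higher and none was lower (none lower at an unadjusted p under 0.05 either), where 1.08% of all genes were higher and 0.328% lower, and the median was 0.05. The 5 were Ccl5, Fasl, Gzmm, Ctla2b and Prf1. Without day-40 array 1, which also ended the Gzmm call, the count was 3, and Ctla2b was lost without day-40 array 1, 2 or 4.

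Genes of the S100 family encode calcium-binding proteins that are abundant in effector and memory T cells. S100a4 had 46.0, 68.4, 54.2 and 48.0 at day 40, against 66.6, 86.0 and 151 at day 5, and fell by 0.60 on the log2 scale (adjusted p = 0.0442), with day-40 array 2 inside the day-5 range. S100a6 had 534, 616, 414 and 542 at day 40 and 189, 529 and 673 at day 5, and differed by 0.12 ± 0.27 (adjusted p = 0.967). S100a4 was the 1 memory-list gene called lower, and its call was lost without day-40 array 1, 3 or 4 or day-5 array 1, 4, 7 or 8. It was the only call among 28 tested S100, annexin, galectin and cytoskeletal genes, where 0.328% of all genes were lower.

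Txnip, a thioredoxin-binding protein that restrains glucose uptake and is abundant in resting lymphocytes, rose. Its signals were 1298, 965, 2002 and 1684 at day 40, against 340.3, 500.3 and 740.0 at day 5, with a difference of 1.48 ± 0.24 (adjusted p = 0.00287) and no overlap. Its other probe set differed by -0.14. Txnip was the only call among 26 tested genes of growth arrest and quiescence, where 1.08% of all genes were higher. The median of that list was 0.07. The quiescence factor Klf2 gave 315 ± 60.0 at day 40 and 302 ± 71.9 at day 5 (0.07, adjusted p = 0.972). The cyclin-dependent kinase inhibitor Cdkn1b was near the filter signal on both days, at 26.8 ± 1.87 at day 40 and 26 ± 4.32 at day 5 (0.03, adjusted p = 0.967). Myc, which drives growth in dividing T cells, stood at 68.3 ± 42.5 at day 40 and 59.1 ± 40.1 at day 5 (0.16, adjusted p = 0.957).

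The genes of oxidative phosphorylation, the chain that makes ATP in mitochondria, had mostly small negative differences. Of 61 tested, 58 were negative and the median was -0.35, but only 1 was called, the complex I subunit gene Ndufb11, where 0.328% of all genes were lower. It had 225, 288, 207 and 278 at day 40, against 277, 498 and 829 at day 5, and a difference of -0.91 ± 0.21 (adjusted p = 0.0364), with the highest day-40 array inside the day-5 range. The median was -0.20 within cluster 1 and -0.48 within cluster 2. With the cluster term 10 were lower, where 2.32% of all genes were. With it 1 was higher, where 5.71% of all genes were, namely Sdha, a subunit of succinate dehydrogenase (0.70, adjusted p = 0.00791). Ndufb11 lost its call without any 1 of the day-40 arrays or day-5 array 5, 6 or 8. The count of the list became 0 without day-40 array 1, 3 or 4 or day-5 array 5, 6 or 8, and 2 without day-40 array 2 or day-5 array 2, and 3 without day-5 array 4. Atpif1, the inhibitor of the ATP synthase, had 131, 131, 149 and 139 at day 40 and 177, 245 and 372 at day 5, without overlap (-0.77 ± 0.18, adjusted p = 0.042). Its call was lost without any 1 of the day-40 arrays or day-5 array 5, 6, 7 or 8.

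The proteasome list had a median of -0.31 and 33 of 39 negative differences with no call by limma (8 lower and none higher at an unadjusted p under 0.05, where 277 of all 6409 genes were lower and 536 higher). With the cluster term 4 were lower, where 2.32% of all genes were. Within cluster 1 the median was -0.13 and within cluster 2 -0.38. The catalytic subunit Psmb5 had the largest difference of that list, with 114 ± 61.2 at day 40 and 215 ± 53.6 at day 5 (-0.90, adjusted p = 0.123). Cytosolic ribosomal proteins, by contrast, had a median of 0.02 and no call among 28 (1 higher and none lower at an unadjusted p under 0.05).

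Among glycolysis genes 1 rose and 1 fell. Ldha, which turns pyruvate into lactate, had 1818, 1499, 1416 and 1731 at day 40, against 2003, 2328 and 2683 at day 5, without overlap, and fell by 0.53 on the log2 scale (adjusted p = 0.0282). Pfkp, an isoform of the enzyme phosphofructokinase, had 382, 330.4, 298 and 357 at day 40, against 160.4, 195 and 267 at day 5, and rose by 0.75 ± 0.15 (adjusted p = 0.0196), with its second probe set called at 0.70. They were the only calls among 18 tested genes, where 1.08% of all genes were higher and 0.328% lower, and the median was 0.05. The Ldha call was lost without day-40 array 2, 3 or 4 or day-5 array 5 or 8, and the Pfkp call without day-40 array 1 or 4.

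**Figure D3:**
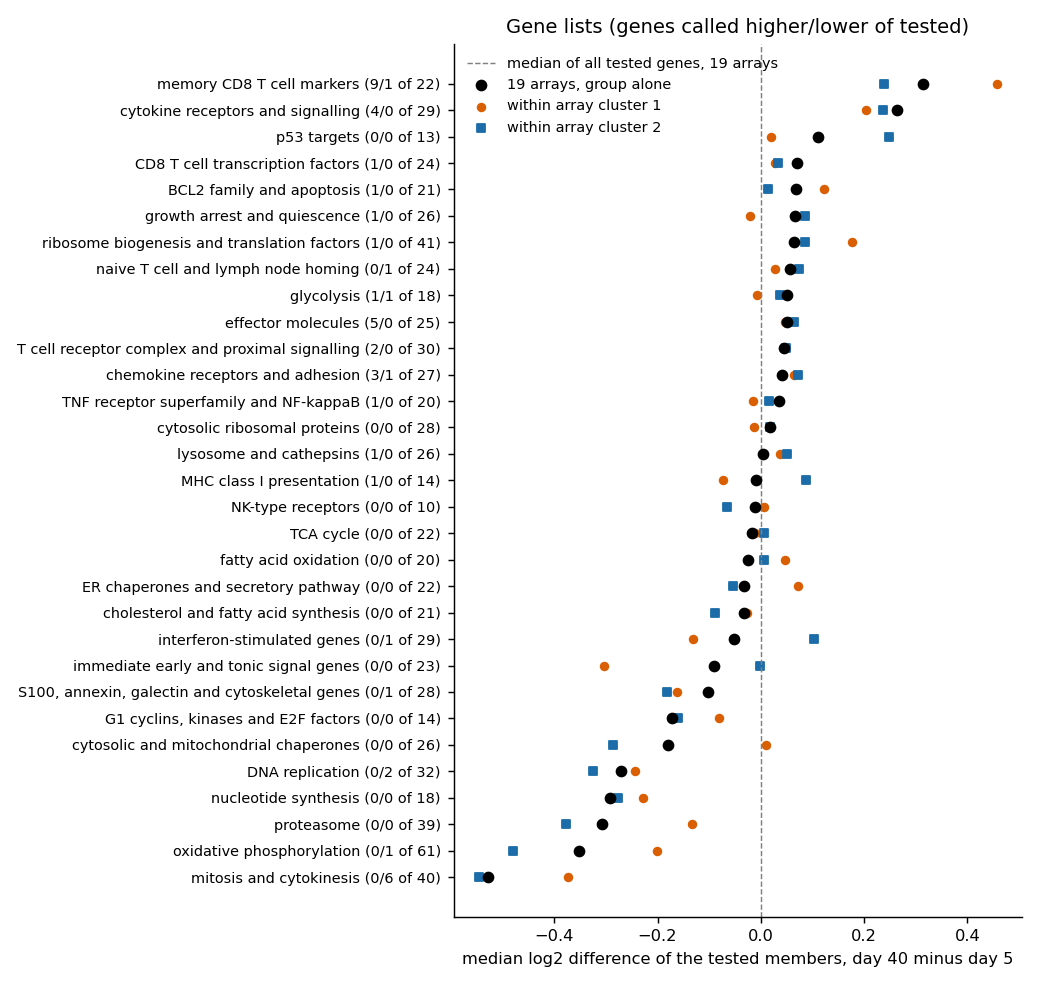
Median log2 difference (day 40 minus day 5) of the tested genes of each pathway list, for all 19 arrays (black), within array cluster 1 (orange) and within array cluster 2 (blue squares), with the counts of genes called higher and lower of those tested beside each name. The mitosis list lies lowest, with a median of -0.53, the memory list highest, with 0.31, and the dashed line is the median of all tested genes.

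In T cell receptor signalling, a phosphatase and a kinase rose. Ptpn22, a phosphatase that dampens signals of the receptor, had 1686, 1695, 1552 and 1902 at day 40, against 586, 788 and 1103 at day 5, without overlap, and rose by 1.12 ± 0.18 (adjusted p = 0.00277). Txk, a kinase of the Tec family, had 1121, 1229, 1771 and 1745 at day 40 and 595, 706 and 1115 at day 5 (0.83 ± 0.20, adjusted p = 0.0476), while its other probe set differed by 0.20. The lowest day-40 and highest day-5 signals of Txk nearly met. Ptpn22 and Txk were the only calls among 30 tested genes of the receptor and its proximal signalling, where 1.08% of all genes were higher. The median of that list was 0.05, and Cd3e stood at 226 ± 38.4 at day 40 and 248 ± 23.2 at day 5 (-0.13, adjusted p = 0.791). Egr1, an immediate early gene of receptor signals, had 92.9, 107, 193 and 211 at day 40 and 112, 227 and 406 at day 5 (-0.55 ± 0.32, adjusted p = 0.576). The Txk call was lost without day-40 array 2, 3 or 4 or day-5 array 1, 2, 3, 7 or 8.

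Bcl2l11, which encodes the pro-apoptotic protein BIM, had 344, 382, 483 and 519.9 at day 40 and 212, 255 and 305 at day 5. It rose by 0.73 ± 0.13 (adjusted p = 0.00946), without overlap. It was the only call among 21 tested genes of the BCL2 family and apoptosis, where 1.08% of all genes were higher. The difference of Bcl2l11 was 0.37 within cluster 1 and 1.04 within cluster 2, and its other probe set differed by -0.12. Tnfrsf1b, a receptor for TNF, had 177, 164, 139.8 and 159.6 at day 40 and 80.5, 97.0 and 123 at day 5 (0.63 ± 0.12, adjusted p = 0.0119), without overlap. Both calls were lost without day-40 array 4.

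Isg15, a ubiquitin-like protein induced by interferon, had 119.7, 85.6, 102 and 79.7 at day 40, against 134, 162 and 234 at day 5, without overlap, and differed by -0.76 ± 0.15 (adjusted p = 0.0132). It was the only call among 29 tested interferon-stimulated genes, where 0.328% of all genes were lower, and the median was -0.05. The call of Isg15 ended without day-40 array 4. Plac8, a small cysteine-rich protein of lymphocytes and myeloid cells, had 1102, 1046, 953 and 792 at day 40, against 1211, 1848 and 2109 at day 5, and fell by 0.87 on the log2 scale (adjusted p = 0.00464) without overlap. Plac8 kept its call whichever array was left out. F2rl3, a receptor cut by thrombin, had 64.1 to 82.0 at day 40 and 83.6 to 96.2 at day 5, a small difference of -0.29 ± 0.07 (adjusted p = 0.0455). That call was lost without any 1 array except day-40 array 2 or day-5 array 4.

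The remaining genes among the 15 largest rises taken by the naming rule served transcription, signalling and other roles. That rule took only genes in which the days did not overlap. Pou6f1, a POU domain factor, had 200.1, 194, 181 and 245 at day 40 and 63.9, 76.1 and 117 at day 5 (1.17 ± 0.14, adjusted p = 0.000312). Prss12, a secreted serine protease, had 138, 112, 102 and 133 at day 40, against 45.0, 53.1 and 59.5 at day 5 (1.00 ± 0.09, adjusted p = 5.14e-06), and its differences in clusters 1 and 2 were 1.00 and 0.99. Ogt, the enzyme that adds N-acetylglucosamine to proteins of the nucleus and cytosol, rose by 1.05 ± 0.22 (adjusted p = 0.0224). Dock9, an activator of the GTPase CDC42, rose by 1.00 ± 0.18 (adjusted p = 0.0085), and 4833420G17Rik by 1.00 ± 0.18 (adjusted p = 0.00696).

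H2-Q10, a class Ib MHC gene known mainly from liver, gave 190.5, 125, 93.1 and 121 at day 40, against 42.0, 52.0 and 63.0 at day 5 (1.08 ± 0.15, adjusted p = 0.00117). Class I genes are so alike that its probe set may also read other members, so this value is uncertain as to the gene. Eef2, the elongation factor that moves the ribosome, had 2512, 1495, 2327 and 2465 at day 40 and 977, 1327 and 1363 at day 5 (0.84 ± 0.18, adjusted p = 0.0249). Lamp1, a lysosomal membrane protein that reaches the surface on degranulation, had 1863, 967, 1359 and 1439.9 at day 40 and 741, 827 and 1004 at day 5, with day-40 array 2 inside the day-5 range (0.69 ± 0.16, adjusted p = 0.0387). Calls were lost without day-40 array 2, 3 or 4 for Ogt, without day-40 array 4 for 4833420G17Rik, and without day-40 array 1, 3 or 4 or day-5 array 5 for Eef2. Lamp1 was lost without day-40 array 1, 3 or 4 or day-5 array 1, 5, 6, 7 or 8. Those of Pou6f1, Prss12, Dock9 and H2-Q10 held in each case.

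Other CD8 T cell genes of the fixed panel were not called. Klrd1, which encodes the receptor chain CD94, had 699.8, 931, 853 and 941 at day 40 and 588, 816 and 1419 at day 5 (-0.05 ± 0.22, adjusted p = 0.984). Eomes, a factor of memory CD8 T cells, stood at 212 ± 32.3 at day 40 and 198 ± 68.9 at day 5 (0.14, adjusted p = 0.923). Of the 37 genes of the fixed CD8 T cell panel, 28 were tested. Of the rest, Klrg1, Ifng, Il2ra and Cd44 were too dim to be tested, and 5 had no probe set of their own here.

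The sorted samples could hold other cells, and none of the 10 marker lists of other cell types had a gene called by limma on groups alone. From 0 to 4 genes per list had an unadjusted p under 0.05, where 536 of all 6409 genes were higher and 277 lower. Of 16 tested B cell genes 14 had a positive difference, with a median of 0.18. With the cluster term 1 of the 16 was called higher, where 5.71% of all genes were. It was the B cell receptor regulator Cd72, at 188 ± 55.6 at day 40 and 102 ± 35.3 at day 5 (0.86, adjusted p = 0.0111). Within cluster 2, 4 of the 16 were higher, Ms4a1, Blk, Cd22 and H2-Aa, where 3.89% of all genes were. The mean log2 signal of the 16 was 7.06 and 7.00 in the 2 day-40 arrays of cluster 2 and 6.70 to 6.76 in its day-5 arrays, without overlap. In cluster 1 it was 6.94 and 7.46 at day 40 and 6.99 to 7.25 at day 5, with overlap. Of 8 tested plasma cell genes 1 was also higher with the cluster term, Txndc5 (0.89, adjusted p = 0.00502), where 5.71% of all genes were. Of 5 tested NK cell genes 1 was lower with it, Cd7 (-0.79, adjusted p = 0.00506), where 2.32% of all genes were. The summed signal of the B cell genes over both clusters ran from 2460 to 4214 at day 40 and from 1942 to 3675 at day 5. Cd79a, a chain of the B cell receptor, had 145 ± 25.7 at day 40 and 145 ± 26.8 at day 5, and H2-Aa, a gene of MHC class II, had 243 ± 115 at day 40 and 118 ± 73.5 at day 5 (adjusted p = 0.252). One called probe set, picked out after its values were seen, is shared by 5 immunoglobulin kappa symbols and gave 1088 ± 431 at day 40 and 311 ± 155 at day 5 (1.79 ± 0.34, adjusted p = 0.0112). The erythroid sum ran from 975 to 1553 at day 40 and from 867 to 3264 at day 5, and that of myeloid genes from 808 to 1018 at day 40 and from 837 to 1188 at day 5. The part of such cells in the rises and falls above was not tested.

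The clusters allowed the day effect to be read in arrays that had nothing in common. Within cluster 2, where 2 day-40 arrays were set against 5 day-5 arrays, 315 probe sets were higher (3.62%) and 177 lower (2.04%). In the arrays of cluster 1, 295 of those 315 (93.7%) had a difference of the same sign, as did 151 of those 177 (85.3%), against 63.1% of all 8695 tested. The median difference of the 315 was 0.66 in cluster 2 and 0.38 in cluster 1, and that of the 177 was -0.79 in cluster 2 and -0.25 in cluster 1. Cluster 1 alone, with 2 day-40 against 3 day-5 arrays, gave 1 call, Fasl, higher (0.0115%), and none lower, while 671 probe sets had an unadjusted p under 0.05. In both fits the spread also drew on other arrays, those of day 115 in cluster 1 and of unirradiated hosts in cluster 2. A test of whether the day effect differed between the clusters called no probe set in limma, with 500 at an unadjusted p under 0.05. It called 2 without day-40 array 2, 10 without day-5 array 1, and 1 each without day-5 array 2 and without day-5 array 3.

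**Figure D4:**
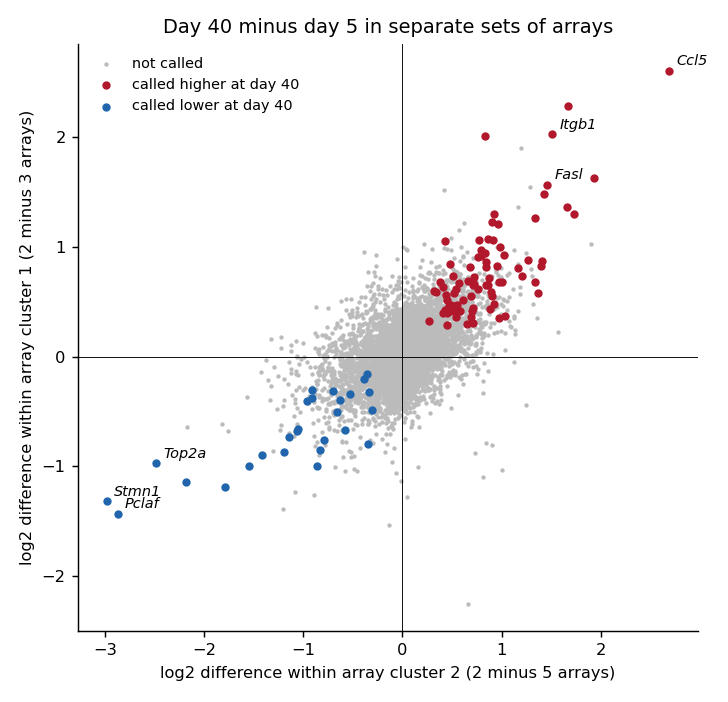
Log2 difference (day 40 minus day 5) of each tested probe set within array cluster 1 (vertical axis) and within array cluster 2 (horizontal axis), which share no array. Red and blue points are the 82 and 27 probe sets called higher and lower on groups alone in all arrays, and grey points are the rest. Called points lie in the upper right and lower left, which the call itself favours, since it used the arrays of both clusters. Ccl5 is at 2.61 in cluster 1 and 2.69 in cluster 2, and Stmn1 at -1.32 in cluster 1 and -2.98 in cluster 2.

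Set beside the other groups of the study, the genes of the comparison took different courses, given here as values, since each further comparison would reuse the same arrays. Top2a averaged 37.9 ± 6.54 in unirradiated hosts (n = 4), 226 ± 186 at day 5, 35.2 ± 2.43 at day 40 and 33.4 ± 5.76 at day 115 (SD, n = 3), so that day 5 alone was high. Il7r averaged 1775 ± 399 in unirradiated hosts, 787 ± 189 at day 5, 2240.3 ± 697 at day 40 and 1328 ± 518 at day 115, with day 5 the lowest. Plac8 had 991 ± 36.5, 1797 ± 283, 973 ± 135 and 644 ± 18.6 in the same order. For these genes the mean at day 40 was nearer to that of unirradiated hosts than to that of day 5.

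Ccl5 and Fasl took another course. Ccl5 averaged 316 ± 179 in unirradiated hosts, 378 ± 197 at day 5, 2159.8 ± 484 at day 40 and 2109 ± 229.5 at day 115, and Fasl averaged 28.7 ± 2.69, 28.3 ± 4.93, 112 ± 19.4 and 95.5 ± 3.71. In both genes the mean at day 5 was close to that in unirradiated hosts, and the mean at day 40 was close to that at day 115. Cxcr3 stood at 160.2 ± 22, 560.3 ± 166, 1028 ± 152 and 1324 ± 174 in the same order, each mean above the one before. Since the unirradiated arrays all belong to cluster 2 and the day-115 arrays to cluster 1, these 2 groups cannot be told apart from their array cluster.

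**Figure D5:**
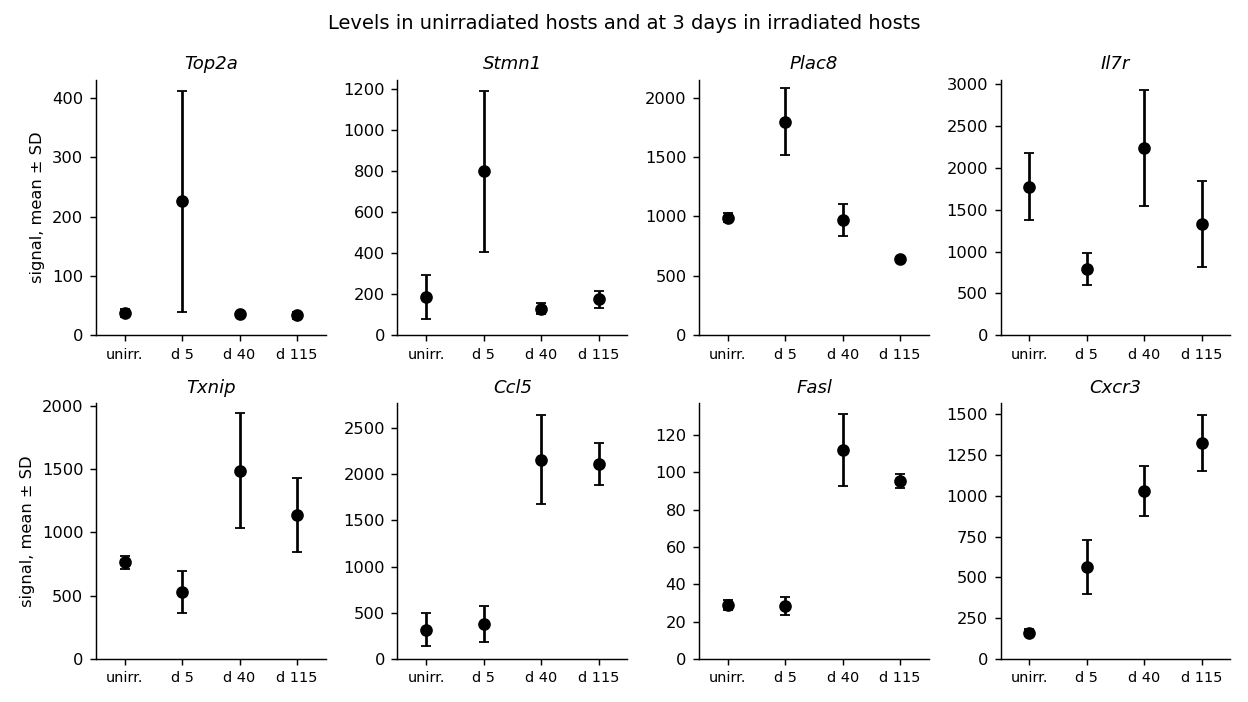
Mean signal with SD of 8 genes in unirradiated hosts (n = 4) and in irradiated hosts at day 5 (n = 8), day 40 (n = 4) and day 115 (n = 3), on linear axes that start at 0. Top2a and Stmn1 are high at day 5 alone, Il7r is lowest at day 5, and Ccl5 and Fasl are high at days 40 and 115.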

How the data were processed

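Transcripts of OT-I cells were measured on oligonucleotide arrays, of which 12 entered the comparison. The deposited table gives a linear signal intensity for each probe set, from 7.68 to 13242.28. How the authors computed and scaled these intensities was not given in the sources used here. Array medians differed by at most 0.088 on the log2 scale, and the values were used as deposited. Groups follow the titles. Of 12488 probe sets, 66 controls were left out. Of the other 12422, 10833 had 1 gene symbol in the platform table, 396 several and 1193 none, and symbols were updated through RefSeq (GRCm38.p6). Probe sets with a mean over the 19 arrays above the 30th percentile (26.4) were tested.

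Log2(signal + 16) of all 19 arrays, which share 1 estimate of the spread, was modelled in limma 3.58.1 (R 4.3.3) with group as the only factor, variances moderated with an intensity trend, and Benjamini-Hochberg adjustment. The code was tested on simulated data. Array clusters came from average linkage on 1 minus Pearson's correlation. No array duplicated another.

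The rule for names took, of 49 rises and 16 falls called both with and without the cluster term and free of overlap, the 15 largest of each. To these it added up to 4 called members per list and a panel of 37 genes. The promoters shown belong to the 4 deepest falls of the replication and mitosis lists that have an entry. Members, lists and rules were chosen with earlier results of these data known, and lists are described without a test. Alternatives were other added constants (1 and 64), filters, quantile normalisation, no trend, the 12 arrays alone, 4 treatments of the cluster, a replicate block, and each array left out. Leaving out day-5 arrays 1 and 2 together was added after the data had been seen.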

Additional observations from a re-analysis of the deposited data

Results flagged for a closer look

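Of 118 groups of 4 or 8 signals of the named genes, 6 held an array that stood apart from the rest by Dixon's criterion, which chance alone passes in about 5% of groups. At day 40, array 3 had the highest Pclaf signal, 33.8, with the next at 23.1, and array 2 had the lowest Eef2 signal, 1495, with the next at 2327. At day 5, array 3 was highest in 3 genes. Its Fasl signal was 39.3 with the next at 28.9, its Ctla2b signal 84.9 with the next at 45.7, and its Gzma signal 118 with the next at 62.5. Array 2 had the lowest Plac8 signal of day 5, 1211, with the next at 1665. Fasl, Pclaf, Plac8, Ctla2b and Eef2 each stayed called without the array that stood apart, and Gzma was not called.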

How the results depend on the processing

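None of the 43 called named genes changed direction under any of the alternatives. Of them, 43 stayed called with 1 added to the signals, 37 with 64 added, 38 with no filter and 41 after quantile normalisation. There were 43 with the cluster term, 43 with the cluster as a random block, 39 in cluster 2 alone, 20 with the 12 arrays alone and 1 in cluster 1 alone. For the largest rises and falls, the naming rule itself required a call in the same direction with the cluster term. The result with that term was thus in part fixed by the choice of genes. The counts of probe sets higher and lower, 82 and 27 on groups alone, were 42 and 4 with the 12 arrays alone, 447 and 203 with the cluster term, 347 and 152 with the cluster as a random block, 315 and 177 in cluster 2 alone, and 1 and 0 in cluster 1 alone, where 671 had an unadjusted p under 0.05. They were 83 and 30 with 1 added, 76 and 21 with 64 added, 71 and 23 with no filter, 98 and 30 with a filter at the 50th percentile, 93 and 39 after quantile normalisation, 99 and 34 with no intensity trend, and 120 and 73 without day-5 arrays 1 and 2 together. With each array left out they ranged from 22 to 138 higher and from 3 to 49 lower, both lowest without day-40 array 4. The day by cluster test called 0 on all arrays and from 0 to 10 with each array left out, and 0 under the other settings in which it was run. The cause of these changes was not tested. With the replicate number as a block the counts were 25 and 10, 27 of them shared with the 109, and 13 of the 43 named calls held. The numbers do not show a pairing, as arrays of the same number on the 2 days had correlated deviations of 0.64, 0.62, -0.67 and 0.76, and only for number 4 was the best match its own number. Signals near the filter level (26.4) limit what can be said of dim genes, whose log2 sizes follow the added constant.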

Other observations

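The called genes below lie outside the rule for naming and were chosen after their values were seen. Nedd4, a ubiquitin ligase, averaged 62.3 ± 6.62 at day 40 and 40.3 ± 4.82 at day 5 (0.48 ± 0.09, adjusted p = 0.00912), without overlap. Siah1a, a RING ligase, averaged 231 ± 51.5 at day 40 and 128 ± 24.5 at day 5 (0.77 ± 0.16, adjusted p = 0.0187), and the deubiquitinase gene Usp48 averaged 362 ± 57.6 at day 40 and 179 ± 30.2 at day 5 (0.96 ± 0.13, adjusted p = 0.00117). Mdm4, an inhibitor of p53, rose by 0.73 ± 0.17 (adjusted p = 0.0369).

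Smad7, which blocks TGF-β receptors, averaged 101 ± 5.90 at day 40 and 69.3 ± 5.99 at day 5 (0.46 ± 0.08, adjusted p = 0.00594). Errfi1, an inhibitor of receptors of the EGF family, averaged 164 ± 14.3 at day 40 and 83 ± 11 at day 5 (0.86 ± 0.11, adjusted p = 0.000382), and its difference was 0.86 in cluster 1 and 0.84 in cluster 2. Zfp36l2, an RNA-binding protein that promotes decay of short-lived transcripts, averaged 2228 ± 299 at day 40 and 1187 ± 242 at day 5 (0.92 ± 0.20, adjusted p = 0.0229). Npc1, which exports cholesterol from lysosomes, and Aqp9, a channel for water and glycerol, rose by 0.81 ± 0.13 (adjusted p = 0.00286) and 0.76 ± 0.14 (adjusted p = 0.00788). Adcy7, an adenylyl cyclase, rose by 0.90 ± 0.14 (adjusted p = 0.00189). Every day-40 array lay above every day-5 array in Smad7, Errfi1, Zfp36l2, Npc1, Aqp9 and Adcy7.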
